A study of Mus musculus with 3 samples.

Results

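Segment S3 is the last part of the kidney's proximal tubule, the straight part that descends from the outer cortex into the outer medulla. Proximal tubule cells take back most of the filtered glucose, amino acids, phosphate and bicarbonate and secrete organic anions and cations. Segments S1 and S2 carry transporters of high capacity, whereas S3 cells carry transporters that recover what remains, such as the aspartate and glutamate carrier Slc7a13, the monocarboxylate carrier Slc5a8 and the glucose carrier Slc5a1. S3 cells rely on fatty acids as fuel, and mouse S3 is known for genes that differ between the sexes.

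The cells were taken from kidneys digested to single cells and profiled by droplet scRNA-seq (10x Genomics), each library from a single mouse: Aoah-/- mice numbered 2 and 3 in the labels, and WT mouse number 3. Aoah encodes acyloxyacyl hydrolase, an enzyme that inactivates bacterial lipopolysaccharide. By the labels, all 3 mice were 6 to 8 weeks old and were sampled on day 14 of the folic acid (FA) model, in which FA crystals and toxicity injure the tubules; no mouse without FA is among the samples analysed here. The study's text gives an older age range for its FA mice than the labels do. The Aoah deletion was present in the whole body, on a C57BL/6J background, with WT littermates as controls, so that loss in tubule cells and loss in other cells cannot be told apart.

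S3 cells were chosen by their counts. A barcode had to hold at least 1672 UMIs and 200 genes and at most 50% of UMIs from mitochondrial genes. It had to hold at least 2 of Slc7a13, Slc5a8, Acsm3 and Mep1a, and more UMIs of Slc7a13, Slc5a8 and Acsm3 in sum than of Slc5a12, Slc5a2 and Slc6a19, which mark S1 and S2. At most 1 UMI of Ptprc, Tyrobp, Vcam1, Havcr1 and Slc12a1 in sum was allowed, genes of leukocytes, of injured tubule and of the ascending limb. This gave 8591 S3 cells of 48404 cells within the limits, with 2235 and 2662 from Aoah-/- mice 2 and 3 and 3694 from WT. The mirror rule for S1/S2 cells gave 7115 cells, used here for comparison.

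The libraries were not sequenced or called alike. They held 25516, 24693 and 23072 barcodes and 167222984, 161015021 and 158551992 UMIs for Aoah-/- mouse 2, then Aoah-/- mouse 3, then WT. All values below are given in that order unless a sentence names the mouse. The smallest barcodes held 500, 1672 and 500 UMIs, and the UMI minimum was set by Aoah-/- mouse 3, the library with no barcode beneath it. Beneath it, 283 of 5927 barcodes of Aoah-/- mouse 2 and 335 of 4931 of the WT mouse met the rest of the rule. S3 cells had a median of 8124, 5352 and 10279 UMIs and of 2317, 1719 and 2660 genes, so those of the WT mouse were the deepest and those of Aoah-/- mouse 3 the shallowest. In sum they held 23575180, 24645446 and 46074986 UMIs. Pairs of libraries shared 171 to 176 barcode sequences, and of S3 cells Aoah-/- mouse 3 shared 1 with Aoah-/- mouse 2 and 3 with the WT mouse. The single WT library has no spread of its own and no test between genotypes was made, so differences are given as sizes. Intervals cover counting error only, and SD is the spread between the 2 Aoah-/- libraries.

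The deleted gene was lower in both Aoah-/- libraries but not at 0. Aoah stood at 12.1, 12.1 and 26.8 CPM (UMIs of the gene per 1000000 UMIs of the S3 cells), with Poisson 95% intervals of 10.7 to 13.6, 10.7 to 13.5 and 25.3 to 28.3. On CPM + 1 the Aoah-/- mean lay at a log2 ratio to WT of -1.09. Aoah did not reach the minimum of 50 CPM used for calls. In S1/S2 cells the levels were 13.5, 11.0 and 25.7 CPM, and in lymphocyte barcodes 2.05, 1.26 and 6.52 CPM. Gene-level counts do not show from which part of the gene the Aoah-/- UMIs came. Aoah lies on chromosome 13, 20794113 to 21036617, of GRCm38 (GENCODE M21).

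The genes used to choose the cells are a description and not a result. Slc7a13 stood at 526, 653 and 728 CPM in S3 cells and at 10.8, 16.8 and 26.3 CPM in S1/S2 cells. Slc5a8 stood at 256, 282 and 234 CPM and Acsm3, a medium-chain acyl-CoA synthetase, at 377, 435 and 375 CPM. Mep1a, a brush border metalloprotease, stood at 744, 878 and 755 CPM. Of the 4, Slc7a13 was below WT in both Aoah-/- libraries. All 4 markers were detected in 42.3%, 41.2% and 54.5% of S3 cells, and 1 UMI of an excluded gene was held by 24.8%, 30.7% and 12.2%. The WT mouse, whose S3 cells were the deepest, had the most cells with all 4 markers and the fewest with an excluded UMI, and the part of depth in this was not tested. At the edge of the rule, cells whose S3 sum exceeded the S1/S2 sum by 1 UMI held Kap, a gene outside the rule, at 38964, 44737 and 38481 CPM. Barcodes just outside, with equal sums, held it at 38166, 32777 and 37659 CPM, and cells inside by 5 or more UMIs at 64817, 82835 and 64525 CPM. The edge cells therefore lay between the classes in Kap.

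**Figure D1:**
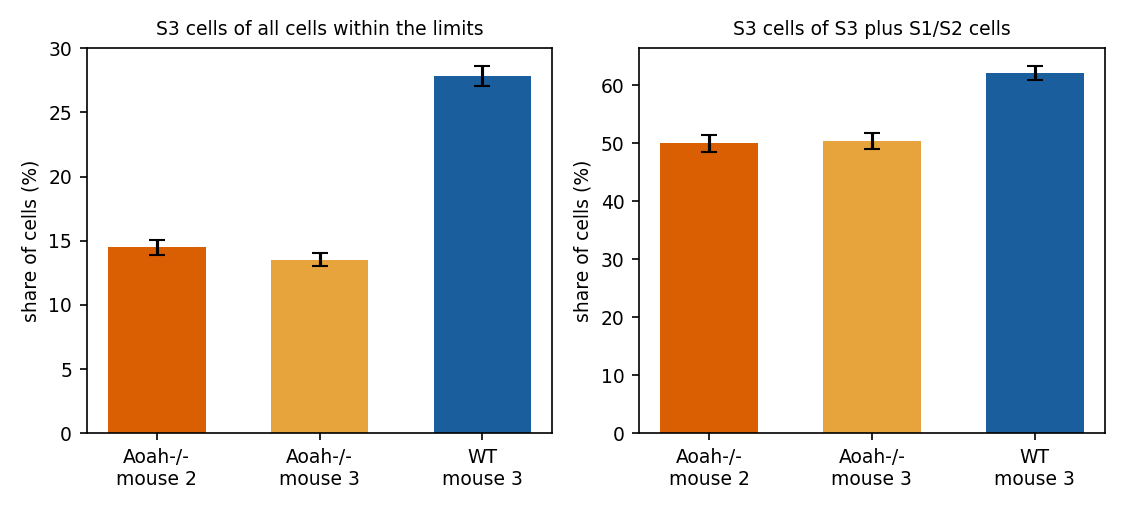
S3 cells as a share of all cells within the limits (left) and of S3 plus S1/S2 cells (right), in % on axes from 0, for the 3 libraries. Bars are shares and whiskers are Clopper-Pearson 95% intervals, and the WT bar is the highest in both, at 27.8% and 62.1%.

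S3 cells made up a smaller share of the cells in both Aoah-/- libraries than in the WT library. The shares were 14.5% (Clopper-Pearson 95% interval 13.9 to 15.04), 13.5% (13.0 to 14.0) and 27.8% (27.1 to 28.6). The Aoah-/- mean was lower by 13.8 percentage points, with an SD of 0.676 between the Aoah-/- mice, and the WT share lay outside both Aoah-/- intervals. Within the proximal lineage the share of S3 among S3 plus S1/S2 cells was 49.97% (48.5 to 51.4), 50.4% (49.1 to 51.8) and 62.1% (60.8 to 63.3), lower by 11.9 points (SD 0.318). S1/S2 cells were 14.5%, 13.3% and 17.0% of all cells. The first difference was smaller, 8.32 points, when the rule was applied to barcodes thinned to 1672 UMIs, with shares of 9.95%, 11.2% and 18.9%. The share of S3 among proximal cells was lower by 7.31 points among cells with at most 20% mitochondrial UMIs, with shares of 55.8%, 58.8% and 64.6%. No genotype effect can be told apart from a difference between single mice or preparations, since WT is 1 library.

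With mitochondrial genes left out, S3 cells were led by Kap, the kidney androgen-regulated protein, which is made in the proximal tubule under androgen control. It stood at 59988, 75853 and 61037 CPM, against 8945, 11207 and 14441 CPM in S1/S2 cells and 3783, 4359 and 6749 CPM in lymphocyte barcodes, which should lack it and so show the level that free RNA reaches. In the median S3 cell, Kap took 5.57%, 6.36% and 5.32% of all UMIs, with a range from the 10th to the 90th percentile of cells of 2.09% to 10.3%, 2.01% to 12.01% and 2.08% to 9.83%. The library medians were close, and the spread between cells includes counting noise. Beside the nuclear RNA Malat1 and the predicted gene Gm42418, the other abundant genes included those of iron storage (Fth1 and Ftl1), peroxide defence (Gpx3, Gpx1 and Prdx5), sodium transport (Fxyd2), phosphate uptake (Slc34a1), acyl-CoA handling (Dbi and Acsm2), the translation-associated gene Tpt1 and Cyb5a, which passes electrons to lipid and steroid enzymes. Of the 15 most abundant genes, none was 1.5-fold or more from WT in both Aoah-/- libraries, where 1.05% of all 2570 measured genes were called higher and 1.4% lower. Gm42418 lies over ribosomal RNA repeats, and its level of 32812, 24071 and 18863 CPM was highest in Aoah-/- mouse 2.

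Of 10 S3 markers outside the rule, 4 reached 50 CPM in a class and 2 of these were called higher in S3 than in S1/S2 cells, at 2-fold or more in each library, a call that 3.53% of all 2691 measured genes met. Atp11a, a phospholipid flippase, stood at 363, 533 and 419 CPM in S3 and 74.5, 111 and 104 CPM in S1/S2 cells. Slc6a18, a carrier of neutral amino acids, stood at 172, 197 and 183 CPM against 19.8, 27.1 and 24.99 CPM. Slc1a1, the glutamate and aspartate carrier, stood at 133, 142 and 133 CPM against 122, 130.4 and 118 CPM and Slc22a30, an organic anion carrier, at 185, 233 and 270.4 CPM against 97.8, 119 and 179 CPM. Slc1a1 was near equal in the 2 segments, whereas Slc22a30 was higher in S3 cells in each library without reaching 2-fold. Below the minimum, Slc22a7 (the anion carrier OAT2) stood at 33.6, 62.9 and 24.1 CPM against 0.390, 1.21 and 0.534 CPM, and Slc5a1 (the glucose carrier SGLT1) at 48.7, 44.7 and 33.4 CPM against 5.97, 6.60 and 4.36 CPM. Cyp7b1, an enzyme of oxysterols, was low in S3 at 1.78, 5.27 and 11.5 CPM, and Slc7a12 at 5.43, 6.41 and 5.82 CPM. Of 10 S1/S2 markers outside the rule, 6 were lower in S3 cells, beside 3.12% of all genes, and 2 were higher. The lower ones included Gatm, which makes guanidinoacetate, at 424, 257 and 195 against 2198, 2186 and 1948 CPM, and Slc7a8, a basolateral amino acid carrier, at 22.9, 21.5 and 20.3 against 166, 182 and 158 CPM. The 2 higher ones were Slc5a10, a carrier of mannose and fructose, at 159, 148 and 113 against 29.8, 29.2 and 19.1 CPM, and Slc22a6 (OAT1) at 901, 975 and 877 against 408, 411 and 390.0 CPM. The labels of these 2 as S1/S2 markers thus went against the data.

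Across all genes, 95 of 2691 (3.53%) were called higher in S3 than in S1/S2 cells and 84 (3.12%) lower. The rule split the cells on this contrast, so the counts are a description and nothing is read from them. The 12 genes highest in S3 by ratio, with gate genes left out, were led by Slco1a1, a carrier of bile acids and steroid conjugates. It stood at 315, 489 and 347 CPM in S3 cells and 4.996, 12.2 and 6.41 CPM in S1/S2 cells, a mean log2 ratio of 5.50 (SD 0.26, 3 libraries). Cyp2a4, a steroid 15-alpha-hydroxylase, stood at 209, 238 and 283 against 12.5, 10.2 and 19.2 CPM, and its near-identical copy Cyp2a5 may share reads with it. Bdh1, which turns over ketone bodies, stood at 60.2, 61.3 and 70.8 against 4.22, 5.14 and 3.04 CPM. Cd36, the fatty acid translocase, stood at 191, 287 and 243 against 19.3, 22.6 and 24.6 CPM. Slco1a1 was above its S1/S2 level in every library, and its S3 level was highest in Aoah-/- mouse 3. The remaining 8 were the P450 Cyp2d9, the steroid dehydrogenase Akr1c14, the protease Napsa, the brush border adhesion protein Tmigd1, the transcription factor Irx3, the secreted lipid-mobilizing protein Azgp1, the angiotensin-converting enzyme Ace and Slc6a18, with mean log2 ratios from 2.90 to 3.76.

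**Figure D2:**
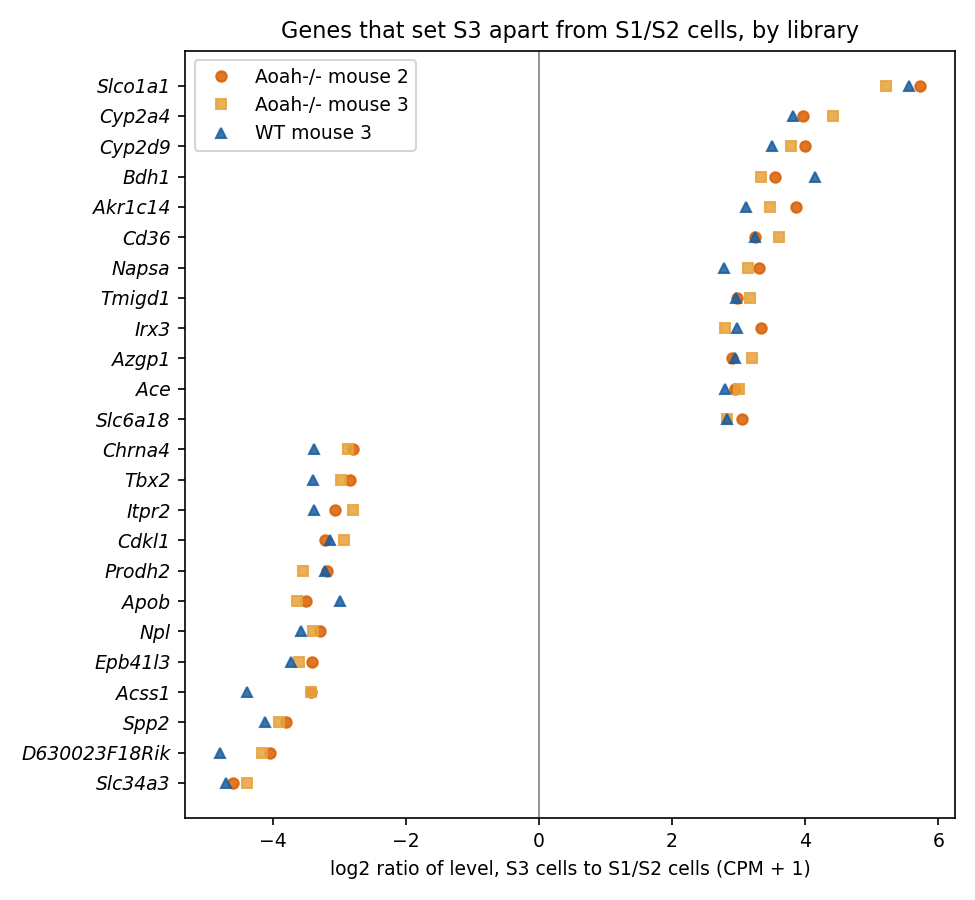
Log2 ratio of the level in S3 cells to that in S1/S2 cells on CPM + 1 (x axis), for the 12 genes with the highest and the 12 with the lowest mean ratio, gate genes left out; symbols are the 3 libraries. Slco1a1 stands at the top with a mean of 5.50 and Slc34a3 at the bottom with -4.56.

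The 12 genes lowest in S3 were led by Slc34a3, a sodium phosphate carrier, at 1.70, 2.60 and 1.74 CPM against 63.9, 73.8 and 70.1 CPM (mean log2 ratio -4.56). Acss1, a mitochondrial acetate-activating enzyme, stood at 16.2, 14.9 and 6.12 against 184, 169 and 147 CPM, and Prodh2, which breaks down hydroxyproline, at 7.93, 5.48 and 11.1 against 80.2, 74.5 and 111 CPM. Apob, a lipoprotein backbone, stood at 12.9, 9.25 and 12.4 against 155, 127 and 105 CPM. The other 8 were the secreted phosphoprotein Spp2, D630023F18Rik, the membrane skeleton gene Epb41l3, the sialic acid lyase Npl, Cdkl1, the inositol trisphosphate receptor Itpr2, the transcription factor Tbx2 and the acetylcholine receptor subunit Chrna4, at mean log2 ratios from -4.33 to -3.01. Each of these genes was lower in S3 cells in all 3 libraries, and for Acss1 the S3 level lay below that of lymphocyte barcodes, which stood at 38.9, 34.4 and 19.7 CPM.

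**Figure D3:**
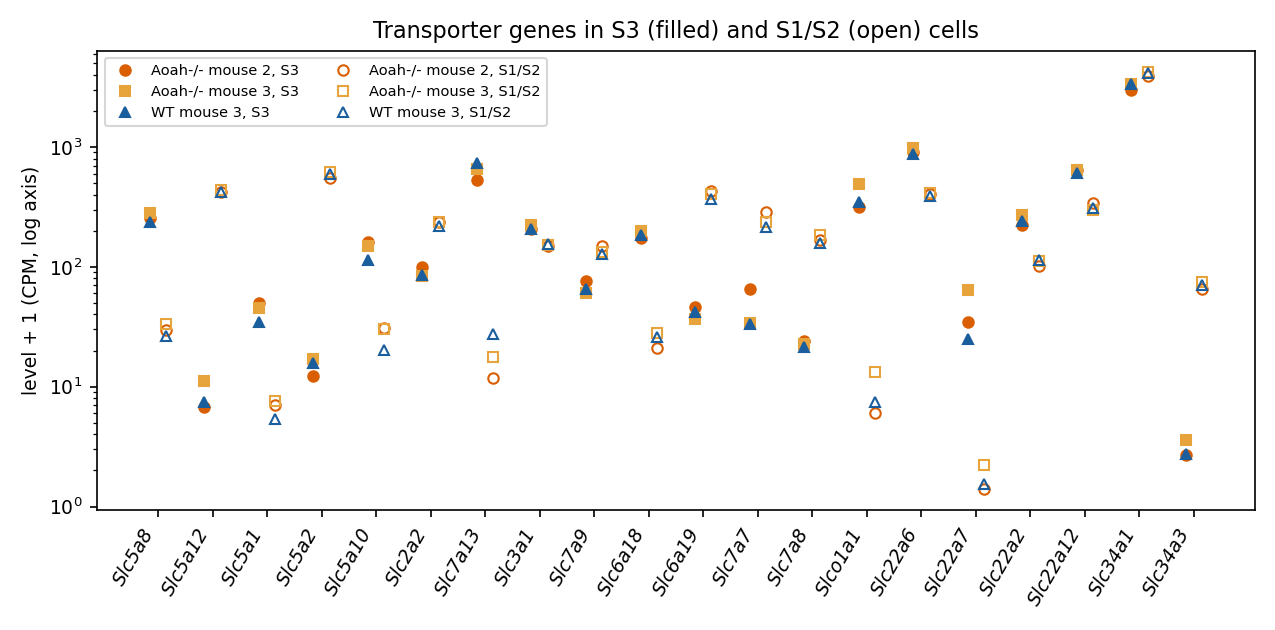
Levels of 20 transporter genes in S3 (filled symbols) and S1/S2 cells (open symbols), in CPM + 1 on a log axis, for the 3 libraries. Slc7a13, Slc5a8, Slco1a1 and Slc22a7 are higher in S3 cells and Slc5a12, Slc5a2, Slc7a8 and Slc34a3 in S1/S2 cells, of which Slc7a13, Slc5a8, Slc5a12 and Slc5a2 are genes of the rule.

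Transporters were counted without the genes of the rule, as a description of the contrast on which the cells were chosen. Of 13 amino acid carriers, 11 were measured, with 1 higher in S3 (Slc6a18) and 4 lower, where 3.53% of all genes were higher and 3.12% lower. Slc3a2, the heavy chain of several exchangers, was among the lower at 75.7, 66.8 and 60.9 against 250.2, 247 and 220.5 CPM, and so was Slc7a7 at 64.9, 32.7 and 32.0 against 283, 237 and 215 CPM. Of 11 sugar and monocarboxylate carriers, 5 were measured, with 1 higher in S3 (Slc5a10) and 2 lower. Slc2a2, the basolateral glucose carrier, stood at 99.0, 82.4 and 85.1 against 236, 235 and 218 CPM. Of 19 organic ion carriers, 12 were measured and 3 were higher in S3, Slco1a1, Slc22a6 and the cation carrier Slc22a2 at 220.4, 268 and 238 against 101, 110.4 and 112 CPM, and none was lower. Between Aoah-/- and WT no gene of these 3 groups was called, of 8, 5 and 12 measured in that comparison with the genes of the rule included, which is near the background of 1.05% and 1.4%.

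Of 31 fatty acid oxidation genes outside the rule, 25 were measured, 7 higher in S3 and 2 lower, beside 3.53% and 3.12% of all genes. Slc27a2, which takes up and activates very long chain fatty acids, stood at 1241, 1509.9 and 1769.9 against 511, 538 and 769 CPM. Acadm, the medium-chain dehydrogenase, stood at 648, 679 and 710.2 against 309.6, 304 and 343 CPM, and the peroxisomal thiolase Acaa1b at 588, 384 and 504 against 194, 143 and 186 CPM. The mitochondrial thiolase Acaa2 was lower at 129, 85.4 and 113 against 348, 297 and 316 CPM, as was Acsl1, a long-chain acyl-CoA synthetase, at 91.7, 58.6 and 68.5 against 229, 174 and 174 CPM. Thus 2 thiolases of different compartments lay on opposite sides. In the genotype comparison none of 26 was called, Acsm3 included, near the background of 1.05% higher and 1.4% lower, and the group's median log2 ratio was 0.01, against -0.06 over all 2570 measured genes. Cyp4a14, an omega-hydroxylase, was the most spread at 102, 26.9 and 21.9 CPM, high only in Aoah-/- mouse 2.

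Of 22 glutathione and antioxidant genes, 17 were measured between genotypes and none was called, which is near the background of 1.05% and 1.4%. Gpx3, the secreted glutathione peroxidase, stood at 5595, 4936 and 4669.5 CPM in S3 and 18295, 18049 and 14133 CPM in S1/S2 cells. Gsta4, a glutathione transferase, stood at 58.7, 17.0 and 16.1 CPM, with Aoah-/- mouse 2 above the other 2 libraries, and at 65.3, 19.8 and 5.59 CPM in lymphocyte barcodes. Of the 14 genes outside the rule known as androgen-driven or sex-dimorphic, 9 were measured and 4 were higher in S3, beside 3.53% of all genes. With Slc7a13, none of 10 was called between genotypes, again near the background. Cyp4b1, a P450 of this group, stood at 1928, 2282 and 2187 CPM and the ornithine decarboxylase Odc1 at 921, 1193 and 1032 CPM. Both were lowest in Aoah-/- mouse 2. Ddx3y, on the Y chromosome, stood at 46.7, 44.3 and 52.0 CPM and Xist, the RNA of the silenced X chromosome, at 0.170, 0.203 and 0.195 CPM, so the Y-linked gene was detected and Xist was near 0 in all 3 libraries.

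Between Aoah-/- and WT S3 cells, 27 of 2570 genes (1.05%) were at least 1.5-fold higher in both Aoah-/- libraries and 36 (1.4%) at least 1.5-fold lower, on CPM + 1 and with a group mean of at least 50 CPM. Across the 2570 genes, Pearson's r of log2 levels was 0.990 between the Aoah-/- mice and 0.9752 and 0.9777 between each of them and WT. Genes 1.5-fold apart were 1.95% of all between the Aoah-/- mice and 3.93% and 4.32% between each of them and WT. Against 1 Aoah-/- library alone the counts were larger, 49 higher and 61 lower with Aoah-/- mouse 3 and 57 higher and 50 lower with Aoah-/- mouse 2. Of the 27 genes 7, and of the 36 genes 11, stood at 2 times or more of the level in both lymphocyte and ascending limb barcodes, a limit chosen after seeing the data, and these levels hold what the comparison cells make themselves as well as free RNA. Leaving out the members holding 2 or more UMIs of markers of other cell types removed a large part of the S3 cells. Their share of all cells went from 14.5%, 13.5% and 27.8% to 6.42%, 4.46% and 14.7%. These UMIs were counted without thinning, so deeper cells were more likely to be left out. Without those members, 22 genes were higher and 36 lower, of which 16 of the 27 and 23 of the 36 were the same genes. Of the calls lost, 10 of 11 and 6 of 13 fell under the minimum of 50 CPM, and all 27 and 36 genes kept their direction. The WT level was under 50 CPM in 16 of the 27 genes and the Aoah-/- mean in 19 of the 36, so these passed the minimum through 1 group and had to differ. In S1/S2 cells, 33 of 2632 genes (1.25%) were higher and 50 (1.9%) lower. The segments shared 12 of the higher genes, 44.4% of the S3 and 36.4% of the S1/S2 calls, and 23 of the lower ones, 63.9% and 46% of them; both lists rest on the same libraries.

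**Figure D4:**
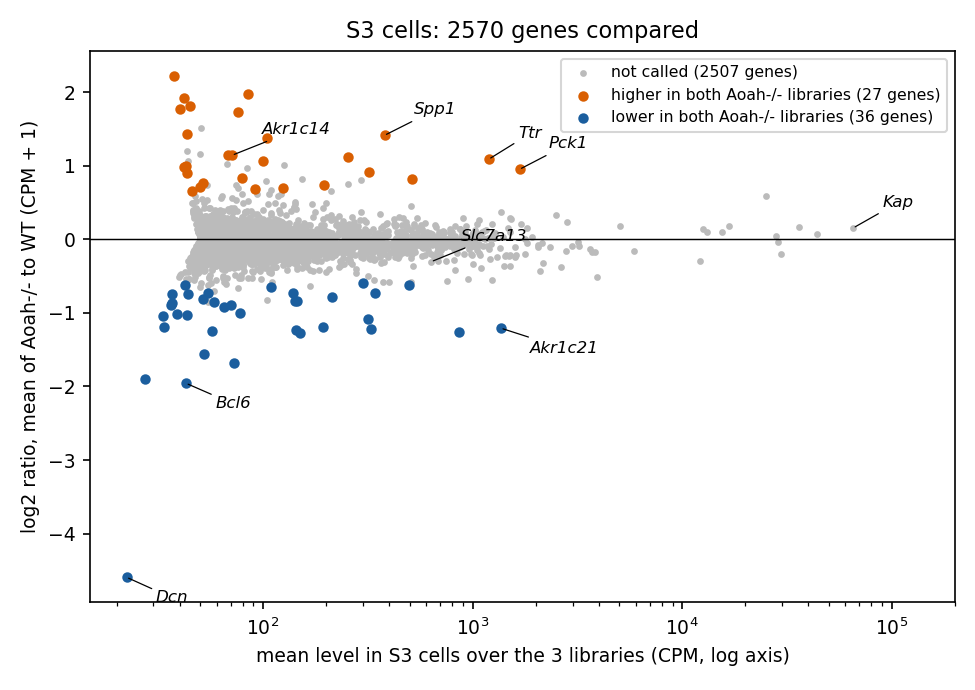
Each point is 1 of 2570 genes, with its mean level in S3 cells over the 3 libraries (CPM, log axis) and its log2 Aoah-/- to WT ratio, means on CPM + 1. Of these, 27 genes are called higher (orange) and 36 lower (blue), and Dcn, a fibroblast gene found in 1.49% of thinned WT S3 cells, lies lowest at -4.59.

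Of the genes higher in Aoah-/- S3 cells, 7 stood at 2 times or more of the level in both comparison classes, with Pck1 the most abundant. Pck1, the rate-limiting enzyme of gluconeogenesis, stood at 2253, 1746 and 1034 CPM in S3 cells, against 330.4, 197 and 164 CPM in lymphocyte barcodes, and both Aoah-/- mice lay above the WT mouse (log2 ratio 0.95, SD 0.26). In cells thinned to 1672 UMIs, a UMI of Pck1 was found in 89.1%, 82.6% and 69.5% of S3 cells and in 21.5%, 15.95% and 8.10% of lymphocyte barcodes. Without thinning, the S3 shares were 96.6%, 94.1% and 92.9%, at medians of 8124, 5352 and 10279 UMIs, and the lymphocyte medians were 2822, 2949 and 2973 UMIs. Ttr, the thyroid hormone carrier transthyretin, stood at 1532, 1375 and 683 CPM, and Ugt2b37, a UDP-glucuronosyltransferase, at 577, 625 and 341 CPM. Ttr was called in S3 and not in S1/S2 cells, where its levels were 1387, 1199.8 and 952 CPM; the difference between the segments was not tested. Akr1c14 stood at 95.1, 79.9 and 39.1 CPM, and Slc25a25, a mitochondrial carrier of ATP and phosphate, at 94.5, 91.2 and 51.7 CPM. Trib2 and the histone gene Hist1h4h completed the 7. Of 11 gluconeogenesis and ammonia genes, 9 were measured and only Pck1 was called, beside 1.05% of all genes higher and 1.4% lower, and G6pc, the last enzyme of glucose release, stood at 339.6, 336 and 339 CPM.

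The 12 genes highest in Aoah-/- by ratio were Gm8730, Ifi27, Lgals3bp, Calb1, Lyz2, Umod, Atp6v1g3, Spp1, Apoe, Wfdc2, Akr1c14 and B2m. Of these, Akr1c14 alone stood at 2 times or more of both comparison levels. For genes that the comparison cells make themselves, such as Umod in ascending limb and B2m in lymphocyte barcodes, that limit does not show a free RNA level. Umod, a protein of the ascending limb, stood at 69.9, 129 and 29.2 CPM in S3 cells and 79.8, 122 and 52.9 CPM in lymphocyte barcodes. Calb1, of the distal convoluted tubule, stood at 52.5, 65.9 and 16.1 CPM against 41.9, 62.9 and 55.5 CPM, and Atp6v1g3, of intercalated cells, at 46.1, 64.3 and 19.9 CPM against 50.7, 82.4 and 7.45 CPM. In the Aoah-/- libraries the Umod levels of the 2 classes were close, and in WT the lymphocyte level was the higher. The 7 ascending limb markers summed to 388, 494 and 325 CPM in S3 cells (log2 ratio 0.44). Of the 2 measured, 1 was called higher, beside 1.05% of all genes, and the other lay below WT in both Aoah-/- libraries. Macrophage markers were also above WT, with Lyz2 at 54.0, 51.4 and 14.7 CPM and Apoe at 101, 161 and 49.98 CPM. The 8 macrophage markers summed to 197, 285 and 84.6 CPM in S3 cells, with Apoe the most abundant and no marker at 0 in all libraries, and at least 2 macrophage UMIs were held by 41.4%, 44.6% and 19.3% of S3 cells. Without the members holding other cells' UMIs, Umod (46.7, 93.1 and 19.3 CPM), Spp1, Apoe, B2m, Ifi27, Gm8730 and Akr1c14 were still called, and Calb1, Atp6v1g3, Lyz2, Wfdc2 and Lgals3bp were under the minimum. The log2 ratio of Atp6v1g3 went from 1.43 to 0.15, whereas Wfdc2 went from 1.14 to 1.16 and Lgals3bp from 1.92 to 2.17. Calb1, Atp6v1g3 and Lyz2 are among the markers by which those members were left out. Neither Apoe nor any ascending limb gene was counted there, so the calls of Apoe and Umod were not put to their own counts.

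Spp1, osteopontin, a secreted protein of injured tubules, was the 1 called gene of 4 measured among 25 injury genes, beside 1.05% of all genes called higher and 1.4% lower. It stood at 404, 557 and 179.9 CPM in S3 cells, 1559, 1682 and 885 CPM in S1/S2 cells and 242, 363 and 333 CPM in lymphocyte barcodes. In thinned barcodes an Spp1 UMI was found in 26.0%, 37.6% and 10.6% of S3 cells and in 25.1%, 29.9% and 11.97% of lymphocyte barcodes. The lymphocyte shares thus had the same order as the S3 shares and WT lay lowest in both. By level the order differed, since lymphocyte barcodes of WT lay above those of Aoah-/- mouse 2. Without thinning the S3 shares were 62.1%, 69.1% and 38.9%. Clu, clusterin, stood at 73.6, 98.1 and 51.0 CPM and Krt8, a keratin, at 116, 111 and 112 CPM. Lcn2, the injury marker known as NGAL, was under the minimum at 13.4, 33.2 and 4.49 CPM. The S3 rule had left out cells with more than 1 UMI of Havcr1 and Vcam1. Plin2, a lipid droplet gene, stood at 57.0, 39.6 and 79.0 CPM, with the WT mouse highest.

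The 8 measured antigen presentation and interferon genes, 4 of MHC class II and 4 of class I and interferon, lay above WT in both Aoah-/- libraries, and 2 of them were called, where 722 of 2570 genes (28.1%) lay above WT in both and 1.05% were called higher. H2-Aa, H2-Eb1 and Ifi27 were under 50 CPM in WT and passed the minimum through the Aoah-/- group, so they had to lie above WT and the count is no support. Leukocyte markers in the same cells had the same direction, with macrophage markers at the sums given above and lymphocyte markers at 41.2, 78.0 and 19.7 CPM, and B2m and Ifi27 were still called without the members holding other cells' UMIs. B2m, the light chain of MHC class I, stood at 309, 312 and 142 CPM and Ifi27, an interferon-induced gene, at 128, 97.3 and 27.9 CPM, the 2 called of 4 measured among 20 class I and interferon genes. H2-K1 stood at 128, 148 and 89.9 CPM and H2-D1 at 139, 174 and 113 CPM. Cd74, the invariant chain of MHC class II, stood at 106, 198 and 74.96 CPM, and the 4 measured class II genes of 7 had a median log2 ratio of 1.08 with none called, because Aoah-/- mouse 2 did not reach 1.5-fold in any of them. Aoah-/- mouse 3 was the highest in all 4. In cells thinned to 1672 UMIs, Cd74 was found in 13.4% (12.04 to 14.9), 26.0% (24.4 to 27.7) and 8.85% (7.96 to 9.81) of S3 cells. In ascending limb barcodes it was found in 9.95% (8.11 to 12.03), 32.7% (30.5 to 35.1) and 6.98% (4.96 to 9.49). The unthinned S3 shares were 38.0%, 52.5% and 31.1%, and the limb medians were 9588, 3916 and 7673.5 UMIs. In Aoah-/- mouse 2 the S3 share lay above that of the limb, with intervals that all but met. In Aoah-/- mouse 3 the S3 share lay below that of the limb, and in the WT mouse the intervals overlapped. S1/S2 cells held it in 17.6%, 32.7% and 12.1%. An S3 share at or below that of the limb is not read as expression, and the source of these UMIs was not tested.

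Of the genes lower in Aoah-/- S3 cells, 11 stood at 2 times or more of both comparison levels, with Akr1c21 the most abundant. Akr1c21, a hydroxysteroid dehydrogenase, stood at 594, 1307 and 2199 CPM, and both Aoah-/- mice were below WT but far apart from each other (log2 ratio -1.21, SD 0.80). In thinned S3 cells it was found in 60.5%, 80.2% and 90.8%, and in lymphocyte barcodes in 6.84%, 13.1% and 16.4%. The unthinned S3 shares were 90.4%, 93.1% and 98.5%. Its relative Akr1c14, in the same gene cluster on chromosome 13, was higher in both Aoah-/- libraries. The deleted Aoah lies on chromosome 13 too, from 20794113, with Akr1c14 from 4049011, Akr1c21 from 4574075 and Hist1h4h from 23531050. Whether DNA near the deletion differs between the mice was not tested, so it cannot be told apart from loss of Aoah for these genes. The P450 genes Cyp2d9 at 36.9, 40.9 and 93.9 CPM and Cyp2d12 at 11.5, 16.2 and 54.3 CPM, in 1 gene cluster on chromosome 15, were lower in both Aoah-/- libraries, with log2 ratios of -1.25 and -1.90. Azgp1 stood at 27.0, 35.6 and 93.8 CPM, Dpys, a pyrimidine-degrading enzyme, at 31.6, 24.3 and 52.8 CPM, and Osgin1, a gene of oxidative stress, at 121, 102 and 202 CPM. The other 5 were Gm11128, Tmem252, Tmem37, Zfp697 and the pro-apoptotic Pawr. The gene families can share reads between close copies, so single members of them are uncertain.

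The promoters of Kap and Slco1a1, which lead S3, and of Akr1c21, the most abundant gene called lower, are shown because these genes carry the differences above. Each is the 300 bases from 250 before to 50 after the start site, 5′ to 3′ on the gene's strand, from RefSeq (GRCm38.p6), with matches to any of 5 motifs in capitals. The motifs, searched on both strands and allowed to overlap, were AGAACA (an arm of the steroid hormone response element), GTTAAT (an arm of the HNF1 element), CAAAGTC (core of the HNF4 element), TTCNNNGAA (the STAT and BCL6 element) and TATAAA (the TATA box).
Kap, chr6:133853618-133853917, minus strand: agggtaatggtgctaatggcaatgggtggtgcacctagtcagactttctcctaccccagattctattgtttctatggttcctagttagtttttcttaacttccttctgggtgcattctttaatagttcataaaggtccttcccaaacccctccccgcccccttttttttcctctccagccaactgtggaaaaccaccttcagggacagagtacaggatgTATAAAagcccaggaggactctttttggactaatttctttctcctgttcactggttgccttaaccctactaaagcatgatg
Slco1a1, chr6:141946913-141947212, minus strand: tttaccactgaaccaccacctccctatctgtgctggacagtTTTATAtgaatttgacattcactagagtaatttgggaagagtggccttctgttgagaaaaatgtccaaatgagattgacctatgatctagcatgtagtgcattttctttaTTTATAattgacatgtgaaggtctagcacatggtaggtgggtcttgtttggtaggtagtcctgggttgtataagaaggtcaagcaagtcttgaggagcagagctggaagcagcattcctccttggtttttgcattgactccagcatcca
Akr1c21, chr13:4573825-4574124, plus strand: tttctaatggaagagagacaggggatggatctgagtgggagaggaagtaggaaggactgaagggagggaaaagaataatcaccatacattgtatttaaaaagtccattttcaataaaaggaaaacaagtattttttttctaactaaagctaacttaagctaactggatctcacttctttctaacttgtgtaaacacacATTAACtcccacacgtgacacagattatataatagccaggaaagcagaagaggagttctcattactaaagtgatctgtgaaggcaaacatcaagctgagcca
Kap held TATAAA at position -31, counted from the start site. Slco1a1 held it on the other strand at -209 and -99, and Akr1c21 held GTTAAT on the other strand at -52. Over all 32851 mouse promoters, AGAACA was found in 19.0%, GTTAAT in 7.10%, CAAAGTC in 4.44%, TTCNNNGAA in 8.30% and TATAAA in 13.6%. Of the 36 genes called lower, 26 had 40 promoters, of which 11 (27.5%) held AGAACA and 3 (7.5%) held TTCNNNGAA. Of the 27 called higher, 20 had 27 promoters, of which 5 (18.5%) held GTTAAT and 4 (14.8%) AGAACA. Of the 12 genes highest in S3, 10 had 13 promoters, of which 1 held AGAACA, 3 held CAAAGTC and 5 held TATAAA. A match is a run of letters and not a site of binding.

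Bcl6, a transcriptional repressor, was called lower. It stood at 8.10, 34.7 and 86.1 CPM in S3 cells, 6.91, 19.6 and 60.4 CPM in S1/S2 cells and 15.3, 19.7 and 36.1 CPM in lymphocyte barcodes, so the 2 Aoah-/- mice differed from each other (log2 ratio -1.96, SD 1.40). Thinned S3 cells held a UMI of it in 1.12%, 4.96% and 13.1%. The unthinned shares were 6.35%, 22.2% and 50.4%, and lymphocyte barcodes, thinned, held it in 2.32%, 3.17% and 4.23%. The order Aoah-/- mouse 2, Aoah-/- mouse 3, WT was the same by level and by share. Of 20 tubule transcription factors, 9 were measured and Bcl6 was the 1 called, beside 1.4% of all genes called lower, while Hnf4a, the master regulator of proximal identity, stood at 193, 192 and 227 CPM and Maf at 558, 386 and 463 CPM.

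The lower list also held markers of other cells. Dcn, decorin of fibroblasts, stood at 0.679, 2.68 and 63.7 CPM in S3 cells and 0.587, 0.140 and 30.7 CPM in lymphocyte barcodes, and the 6 fibroblast markers summed to 3.44, 12.6 and 98.3 CPM. All 4 measured haemoglobin genes were called lower, beside 1.4% of all genes, with Hbb-bs at 543, 635 and 1408 CPM in S3 cells and 1421, 2288 and 3748 CPM in lymphocyte barcodes. Hba-a1 and Hba-a2 are near-identical and may share reads. Erdr1, at 51.2, 31.9 and 136 CPM, and the non-coding Gm26917, at 137, 131 and 308 CPM, were also called lower but are not among those markers. Gm26917 ends at 39846341 on chromosome 17, beside Gm42418, which starts at 39846958, lies over ribosomal RNA repeats and was lowest in the WT mouse. Whether Gm26917 holds ribosomal RNA was not tested. In Dcn, the haemoglobin genes, Erdr1 and Gm26917 the WT library was the highest in S3 cells, and for Dcn and Hbb-bs it was also the highest in lymphocyte barcodes. Without thinning, at least 2 erythroid or platelet UMIs were held by 15.8%, 29.4% and 72.3% of S3 cells, those of WT being the deepest. In thinned S3 cells a UMI of Hbb-bs was found in 7.61%, 19.7% and 24.9%. Without the members holding other cells' UMIs, for which Dcn but no erythroid gene was counted, Dcn fell to 1.92 CPM in WT and was under the minimum. Members were left out by Dcn itself, so the rule set this fall and nothing is read from it. A UMI of Dcn was found in 1.49% of thinned WT S3 cells and 1.83% of lymphocyte barcodes, and in 5.41% of the S3 cells without thinning. The haemoglobin genes were not called without those members, with Hbb-bs at 1348, 410.1 and 2008 CPM. Their log2 ratios were -1.19 against -1.26 (Hbb-bs), -0.94 against -1.27 (Hbb-bt), -1.18 against -1.22 (Hba-a1) and -1.11 against -1.09 (Hba-a2). Erdr1 and Gm26917 were still called. Bcl6, Akr1c21, Cyp2d9, Cyp2d12, Azgp1, Dpys and Osgin1 were still called, as were Gm11128, Pawr and Tmem252. Tmem37 (log2 ratio -0.67 against -0.84) and Zfp697 (-0.97 against -1.02) were not, nor was Trib2 of the higher genes (0.99 in both), with Zfp697 and Trib2 under the minimum.

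**Figure D5:**
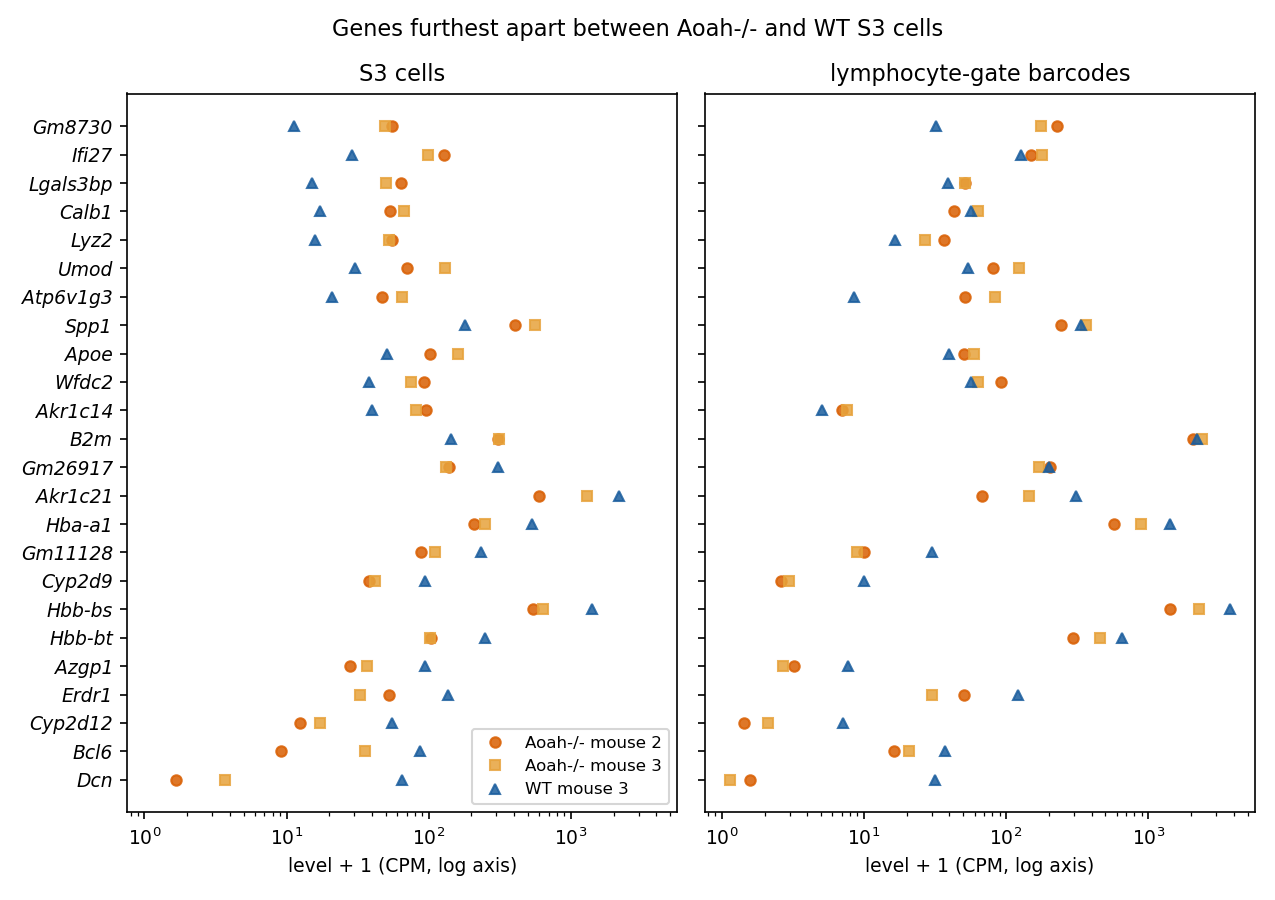
Levels (CPM + 1, log axis) of the 12 genes highest and the 12 lowest in Aoah-/- S3 cells by ratio, in S3 cells (left) and in lymphocyte-gate barcodes (right), for the 3 libraries. Akr1c14 and Cyp2d12 stand well above their lymphocyte level, whereas Umod lies near or below it.

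Of 19 immediate early and heat shock genes, 17 were measured and 1, Ier3, was called higher, at 53.8, 50.8 and 32.9 CPM, beside 1.05% of all genes. Ier3 passed the minimum through the Aoah-/- group, did not reach 2 times the level of the comparison classes and fell under the minimum without members holding other cells' UMIs, where its log2 ratio was 0.64 against 0.65. The 19 genes summed to 5001, 4819 and 5895 CPM, below WT in both Aoah-/- libraries (log2 ratio -0.26). Gene by gene they were mixed, with a median log2 ratio of 0.22. Of the 17 measured, 8 lay above WT in both Aoah-/- libraries and 7 below, where 722 and 1376 of all 2570 genes did. Outside the list, the co-chaperones Dnaja1, at 425, 422 and 652 CPM, and Dnajb4, at 32.8, 26.6 and 50.5 CPM, were called lower. Without those members neither was called, at log2 ratios of -0.59 against -0.62 for Dnaja1 and -0.85 against -0.75 for Dnajb4, which fell under the minimum. Both were named after their values were seen. Jun stood at 900.4, 755 and 1201 CPM and Egr1 at 107, 136 and 78.8 CPM, so Jun was highest in the WT mouse and Egr1 in Aoah-/- mouse 3. The 13 mitochondrially encoded genes summed to 212227, 200748 and 194150 CPM with none called, near the background of 1.05% higher and 1.4% lower. Other cells' markers in S3 cells were low for podocytes, at 6.96, 13.0 and 6.32 CPM in sum, and for cycling cells, at 4.24, 8.93 and 18.6 CPM. Granulocyte markers summed to 15.3, 64.4 and 3.45 CPM and were highest in Aoah-/- mouse 3.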

How the data were processed

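For each library the authors deposited a matrix of raw UMI counts per gene and barcode, whole numbers not normalized, for 27998 genes. The file headers name Cell Ranger 6.1.2, while the submitters' processing notes name Cell Ranger 3.1.0, STAR, Seurat 4.2.0 and mm10. Groups followed the labels.

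S3 and S1/S2 cells were selected by the rules in the text. Lymphocyte barcodes (Ptprc and at least 2 lymphocyte genes, at most 1 macrophage UMI, no Slc12a1) and ascending limb barcodes (at least 2 UMIs of Slc12a1 with Umod detected, at most 1 UMI of Ptprc and Tyrobp) were used as comparison classes for free RNA. No doublet caller was run, so doublets remain. To compare shares of cells with a UMI, barcodes were thinned to 1672 UMIs (seed 7). Within each class of a library the UMIs of each gene were added up and scaled to 1000000 (CPM). A gene was called when both Aoah-/- libraries were 1.5-fold from WT on CPM + 1, or when S3 was 2-fold from S1/S2 in each of the 3 libraries, with a group mean of at least 50 CPM. Cells are not replicates, and with 1 WT library no p-value was computed. Shares have Clopper-Pearson and levels Poisson 95% intervals. Named genes were the 12 per direction with the largest mean ratio in each comparison, the 15 most abundant without mitochondrial genes, and members of the gene lists with the highest level or largest change; the 7 and 11 called genes above the comparison classes were named after their values were seen. The members and lists were chosen with earlier results of these data known. The fold rules were tested on simulated counts, with changes larger than the fold limits and counting noise only. That test does not cover changes near 1.5-fold or differences between mice. Python 3.11.15, numpy 2.4.6, scipy 1.17.1, pandas 2.3.3 and matplotlib 3.10.9 were used. Sequences were read from RefSeq promoters, and the 433 named genes were matched to GENCODE M21 by identifier. Alternatives are given in the closing section. Some genes of the lists are not reported here.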

Additional observations from a re-analysis of the deposited data

Results flagged for a closer look

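The summed level of the 15 amino acid carriers was lower in both Aoah-/- libraries than in WT in S3 cells (1562, 1687 and 1713 CPM, log2 ratio -0.08, or -0.0764889 unrounded) and higher in both in S1/S2 cells (1827, 1795 and 1666 CPM). The sum holds Slc7a13 and Slc6a19, genes by which the cells were chosen. Without them the S3 sums were 991, 998 and 944 CPM and the S1/S2 sums 1387, 1371 and 1273 CPM, so both Aoah-/- libraries were above WT in each segment and the opposite direction was not seen. The difference between the segments was not tested.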

How the results depend on the processing

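No paired analysis was possible because the genotypes share only the replicate number 3. The difference in the share of S3 cells (-13.8 percentage points) kept its sign under each alternative run on it. It was -15.8 with a minimum of 3000 UMIs, -11.9 with at most 20% mitochondrial UMIs, -8.32 with the rule on thinned barcodes, -9.23 without members holding 2 or more UMIs of other cell types and -12.5 without the 10% of members with the most UMIs. The difference in the share of S3 among proximal cells (-11.9) was -7.31 with at most 20% mitochondrial UMIs, -12.3 on thinned barcodes, -8.27 without members holding other cells' UMIs and -13.0 with a 3-fold margin between the sums. Without Aoah-/- mouse 2 or 3 in turn, the share of S3 cells differed by values between -14.3 and -13.4. The WT level of Aoah was 29.2 CPM on thinned barcodes, 25.1 without members holding other cells' UMIs, 33.3 without mitochondrial genes in the total and 24.2 as a mean over cells. The 27 higher and 36 lower genes became 130 and 72 with a minimum of 10 CPM, 12 and 18 with 100 CPM, 5 and 2 at 3-fold, and 7 and 11 at 2 times the comparison classes, a limit added after seeing the data. As a mean over cells 46 were higher and 43 lower. With 1 Aoah-/- mouse left out, 49 to 57 were higher and 50 to 61 lower. The 95 genes higher and 84 lower in S3 than in S1/S2 cells became 169 and 200 at 10 CPM and 44 and 43 at 3-fold, and 95 to 108 and 83 to 97 with 1 library left out. The counts at 10 CPM had a lower minimum, and those with 1 mouse or library left out had fewer libraries to satisfy. The mean over cells had neither, and the cause of its larger counts was not tested. The log2 ratio of the summed amino acid carriers turned from -0.0765 to 0.0754 without Slc7a13 and Slc6a19, genes of the S3 rule, an alternative also added after seeing the data. Of 648 values of named genes under alternatives 477 moved by less than the spread between libraries, 171 by more and 0 changed sign. These genes were picked for large ratios in the same data, so the lack of sign changes is no support. For genotype ratios the spread was the SD between the 2 Aoah-/- libraries, which is wide where these disagree. For segment ratios it was the SD over the 3 libraries, WT included. Of 260 list medians, 225 moved by less than the SD between the Aoah-/- libraries and 35 by more.

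Depth limits genes under 50 CPM. WT is a single mouse, and the S3 cells of Aoah-/- mouse 3 were the shallowest.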
